A study of Mus musculus with 7 samples.

Results

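Cnppd1, Fam134a, Zfand2b, Abcb6, Atg9a, Ankzf1, Glb1l and Stk16 are 8 neighbouring genes on mouse chromosome 1 that most cells use. They were taken by name, as 8 of the 103 genes for which contact between a transcription start site and an enhancer region was tabulated. In table order they follow Slc23a3 and precede Tuba4a, between the genes where contact falls off in Inv2 and in Inv1. The tables hold contacts and no expression, so whether these genes are broadly transcribed in limb buds could not be checked.

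Contacts were measured by capture Hi-C, in which crosslinked chromatin is cut, religated and sequenced after enrichment for one region, here 10 Mb around Epha4. A gene table was given for 5 limb bud libraries at stage E11.5: WT, with no rearrangement named, and the CRISPR/Cas9 inversions Inv1, Inv2, Inv3 and Inv4, whose genotype field reads mutant. Contact maps covered these 5 libraries, Inv1DelCTCF limb buds, which carry the Inv1 inversion and a deletion named after the DNA-binding protein CTCF, and Inv1 embryonic stem cells (ESCs). Each condition was 1 library, made from 10 pooled embryos where limb buds were used, with forelimb and hindlimb tissue together. The cell type field reads G4 ESC, a mouse ESC line, for every library. Whether the embryos carried the inversion on one or on both chromosomes, and whether a line came from 1 clone, is not stated in the labels. There was no replicate of any condition, so the differences below are between libraries and carry no p-value.

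Enhancers act on promoters that they meet in the folded chromosome, and domain borders normally limit which promoters these are. An inversion turns a segment around and so brings the sequence at one of its ends beside new neighbours, while pairs of loci that both lie inside it keep their distance. Autophagy, to which Atg9a and Fam134a belong, delivers cell components to the lysosome, and protein quality control, to which Zfand2b and Ankzf1 belong, removes faulty proteins. Such genes often have promoters rich in CpG dinucleotides.

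The 8 genes gave 5 distinct sets of values. Cnppd1 and Fam134a shared every value, as did Atg9a with Ankzf1 and Glb1l with Stk16, while Zfand2b and Abcb6 each had values of their own. Genes that share values are therefore not separate measurements. In the RefSeq annotation (GRCm38.p6) each of the 3 pairs is head to head, with the left gene on the minus strand and the right gene on the plus strand. The annotated genes are 41 bases apart for Cnppd1 and Fam134a and 149 bases apart for Atg9a and Ankzf1, and those of Glb1l and Stk16 overlap by 9 bases. Sharing was not limited to the members, as 30 genes of the whole table shared all values with another gene. The spans between paired genes are shown because the genes on either side share every contact value. The unit over which a value was scored is not stated, so no value is tied to these spans. The sequences upstream of Zfand2b and Abcb6 are shown beside them as those of the members that share values with no other gene. All are from RefSeq, 5′ to 3′, with capitals for matches to the motifs named after them. Coordinates are those of GRCm38.p6 and differ from the build of the contact maps, mm9. The spans are chr1:75142745-75142785 and chr1:75192011-75192159 on the plus strand, followed by chr1:75168396-75168645 on the plus strand and chr1:75180393-75180642 on the minus strand, both ending at the base before the start site.
Cnppd1-Fam134a span: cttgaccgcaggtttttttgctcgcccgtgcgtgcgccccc
Atg9a-Ankzf1 span: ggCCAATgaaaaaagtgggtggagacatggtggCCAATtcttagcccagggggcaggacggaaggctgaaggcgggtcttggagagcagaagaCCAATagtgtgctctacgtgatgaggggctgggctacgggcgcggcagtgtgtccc
Zfand2b: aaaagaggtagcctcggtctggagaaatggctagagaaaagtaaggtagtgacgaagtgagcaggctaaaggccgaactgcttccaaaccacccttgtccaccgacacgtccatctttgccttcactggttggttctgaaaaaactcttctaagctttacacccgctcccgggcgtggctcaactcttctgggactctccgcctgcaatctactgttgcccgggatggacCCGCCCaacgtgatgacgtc
Abcb6: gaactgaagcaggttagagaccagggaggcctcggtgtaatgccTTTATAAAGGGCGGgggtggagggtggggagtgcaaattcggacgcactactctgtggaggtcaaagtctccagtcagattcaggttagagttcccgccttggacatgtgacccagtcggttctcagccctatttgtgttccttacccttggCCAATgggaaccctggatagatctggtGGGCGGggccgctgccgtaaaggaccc

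All 8 genes were matched to a promoter window of 250 bases before and 50 bases after the start site, Fam134a through its current symbol Retreg2. The windows held 13 to 39 CG dinucleotides, with a median of 19, against a median of 7 over 27025 promoters. The lowest count was that of Abcb6 and the highest that of Fam134a, and 61.5% and 95.7% of all promoters had fewer. All 8 counts thus lay above the median promoter. The Cnppd1 window belongs to a start site inside the annotated gene and does not reach the span shown above, and the windows of Atg9a and Ankzf1 overlap, as do those of Glb1l and Stk16. Of the motifs searched on both strands, some of which overlap each other, CCAAT was found in 5 of the 8 windows and in 37.9% of all promoters, and GGGCGG in 3 and in 35.9%. The span between Atg9a and Ankzf1 holds CCAAT at positions 3, 34 and 94, and all 3 matches lie on the plus strand. CCGGAAG was found in 2 windows, those of Glb1l and Stk16, and in 9.12% of all promoters. TATAAA was found in 2 windows (14.2% of all promoters), CACGTG in 1 (7.24%) and TGACGTCA in 1 (1.88%). A match is a match of letters, and binding was not measured.

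In WT limb buds the members met the enhancer region at a low and even level. Contact ran from 0.652 scaled units for Atg9a and Ankzf1 to 1.09 for Glb1l and Stk16, with a median of 0.857. The highest member was 1.67 times the lowest. These levels ranked 19th to 37th among the 103 genes, above the median of 0.447 for all genes and of 0.188 for the 35 genes at the far ends of the table. The median member reached 11.2% of Epha4, the gene with the highest contact in WT.

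**Figure D1:**
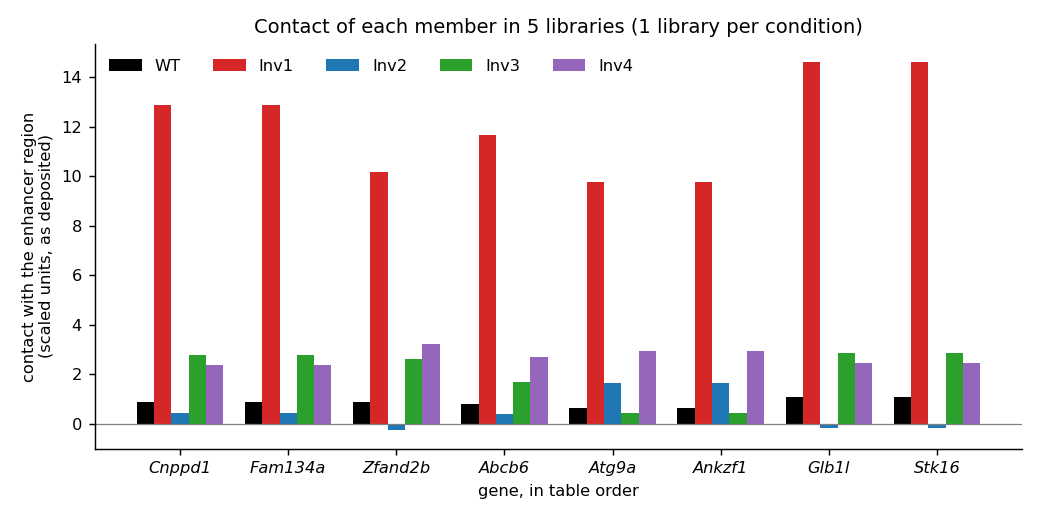
Contact of each of the 8 genes (x axis, in table order) with the enhancer region in scaled units as deposited (y axis), with 1 bar for each of 5 libraries. The Inv1 bars stand between 9.78 and 14.6, and no bar of another library passes 3.23.

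In Inv1 all 8 members stood far above their WT level. Glb1l, which encodes a protein related to beta-galactosidase, and Stk16, a serine/threonine kinase of the Golgi, had the highest contact, at 14.6 against 1.09 in WT. Cnppd1, which encodes a protein with a cyclin-like domain, and Fam134a, of a family of receptors for autophagy of the endoplasmic reticulum, were at 12.9 against 0.857. Abcb6, an ATP-binding cassette transporter, was at 11.7 against 0.776. Zfand2b, a ubiquitin-binding factor that works with the proteasome, was at 10.2 against 0.884. The lowest values were those of Atg9a, a membrane protein that feeds the growing autophagosome, and of Ankzf1, which helps to release stalled chains from ribosomes, at 9.78 against 0.652. The order of the 5 value sets at the top and at the bottom was that of WT, with Glb1l and Stk16 the highest and Atg9a and Ankzf1 the lowest in each.

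Contact in Inv1 was 15.02 times WT for Cnppd1 and Fam134a, 15.1 times for Abcb6, 14.99 times for Atg9a and Ankzf1 and 13.5 times for Glb1l and Stk16 on the deposited scales, and Zfand2b had the lowest ratio. The log2 ratio to WT with a pseudocount of 0.5 was 2.95 to 3.30, with a median of 3.25, against 0.62 for all 103 genes. All 8 members were over 2-fold above WT, as were 35.9% of all genes of the table. None was over 2-fold below, against 3.88% of all genes. Differences to WT were 9.12 to 13.5 units. Over the 35 far genes they ranged from -0.358 to 1.002 with an SD of 0.321, the one available measure of scatter. Those genes lay lower than the members, with medians of 0.188 in WT and 0.305 in Inv1. Scatter at the level of the members was not measured and may be larger, here and in the other inversions. The members ranked 6th to 14th in Inv1, and their median was 53.4% of the highest gene, Ptprn.

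In Inv2, 6 of the 8 genes were below their WT level and Atg9a and Ankzf1 above it, while their left neighbour was higher than in Inv1. Slc23a3, a transporter-like gene that immediately precedes them, was at 9.78 in Inv1 and 17.03 in Inv2, and Nhej1, a DNA end joining factor, at 16.8 and 20.04. Cnppd1 and Fam134a were at 0.438 in Inv2 and Abcb6 at 0.386. Zfand2b was at -0.273 and Glb1l with Stk16 at -0.194, so 3 of the 8 genes had negative values. The Inv2, Inv3 and Inv4 contact maps also hold negative values, most of which, outside the inversion, lie within 1% of 1 multiple of WT, as they would if a weighted WT map had been subtracted. Whether that was done for the gene tables is not stated, so ratios to WT in these 3 libraries may not mean the same as in Inv1. Atg9a and Ankzf1, at 1.64, were the 2 members above their WT value. The log2 ratio to WT ran from -1.67 for Glb1l and Stk16 to 0.89 for Atg9a and Ankzf1, with a median of -0.53 against 0.0044 for all genes. No member was over 2-fold above WT, against 19.4% of all genes, and 3 were over 2-fold below, against 16.5%. Those 3 are the genes with negative values, set to 0 before the ratio. The differences to WT of 3 members lay inside the range of the far genes (-1.12 to 0.498), 3 below it and 2 above it.

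**Figure D2:**
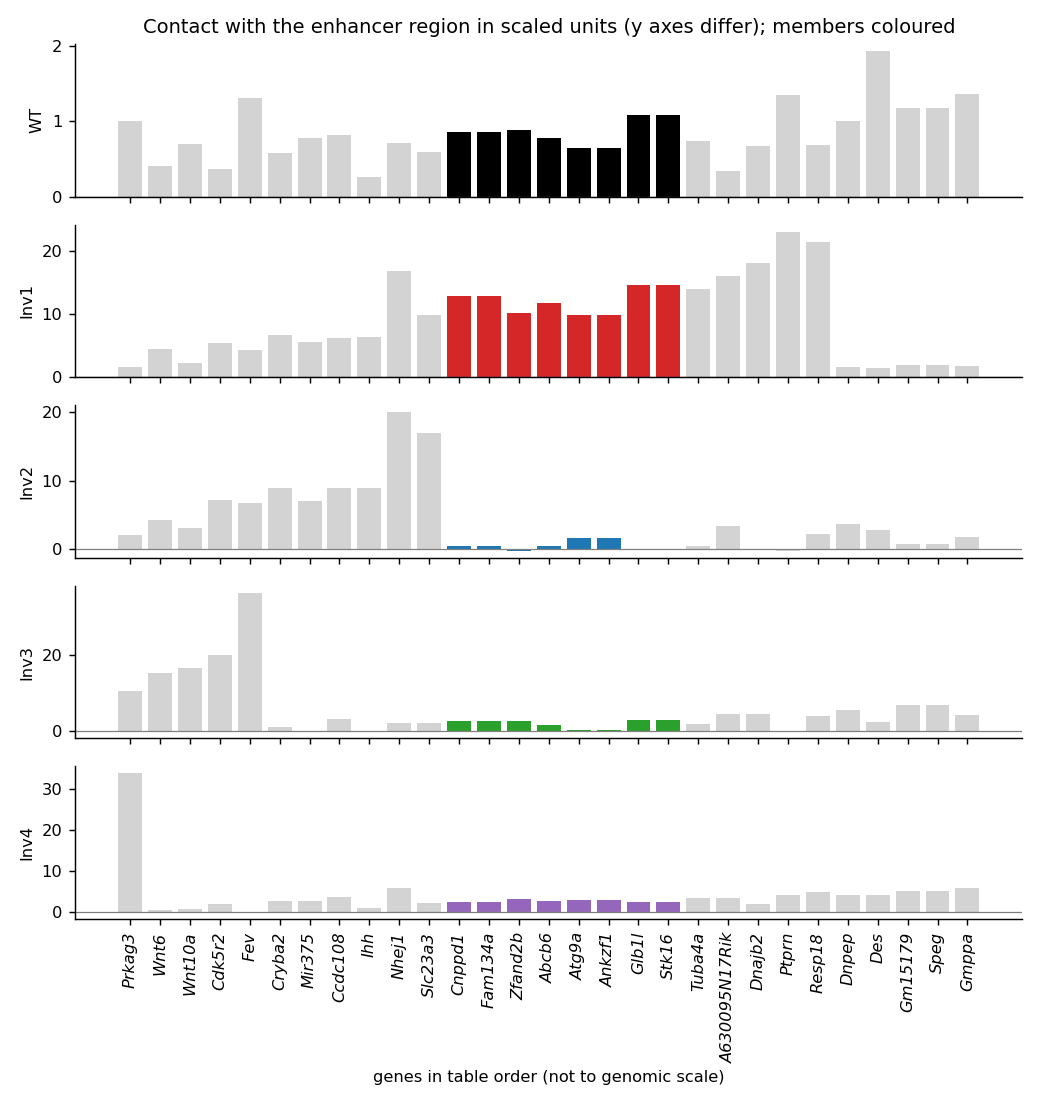
Contact with the enhancer region in scaled units (y axes, which differ between panels) for the genes from Prkag3 to Gmppa in table order, with 1 panel for each library and the 8 members coloured. The members stand in the raised block in Inv1, where Slc23a3 is at 9.78 and Resp18 at 21.4, and directly right of the step in Inv2, where Slc23a3 is at 17.03 and Cnppd1 at 0.438.

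In Inv3 the members split. Glb1l and Stk16 were at 2.86, Cnppd1 and Fam134a at 2.79, Zfand2b at 2.61 and Abcb6 at 1.68, each above WT. Atg9a and Ankzf1 were at 0.441, under their WT value of 0.652. The log2 ratio was 1.08 to 1.28 for 5 members and 0.77 for Abcb6, and -0.29 for Atg9a and Ankzf1. These 5 were over 2-fold above WT, against 45.6% of all genes, and none was over 2-fold below, against 10.7%. The differences of 3 members lay within the far-gene range of -1.17 to 1.49. Centred on the median of all genes, whose log2 ratio was 0.81, no member was over 2-fold above WT and Atg9a and Ankzf1 were at -1.097. Under that centring 24 of all 103 genes were over 2-fold above WT and 29 below.

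In Inv4 the members were raised evenly. Zfand2b was at 3.23, Atg9a and Ankzf1 at 2.93, Abcb6 at 2.68, Glb1l and Stk16 at 2.45, and Cnppd1 and Fam134a at 2.38. The highest member was 1.36 times the lowest, less than in any of the other 3 libraries without negative members. The order differed from that of WT, since Atg9a and Ankzf1, the lowest there, came after Zfand2b alone. The log2 ratio was 0.89 to 1.58, and 6 members were over 2-fold above WT, against 52.4% of all genes. None was over 2-fold below, against 6.8%. Centred on the median of all genes (1.08), the members ran from -0.19 to 0.49 with none over 2-fold above WT, against 24 of all 103 genes. The differences of 4 members exceeded the highest far-gene difference of 1.79. Those of the other 4, Cnppd1, Fam134a, Glb1l and Stk16, lay inside the far-gene range.

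**Figure D3:**
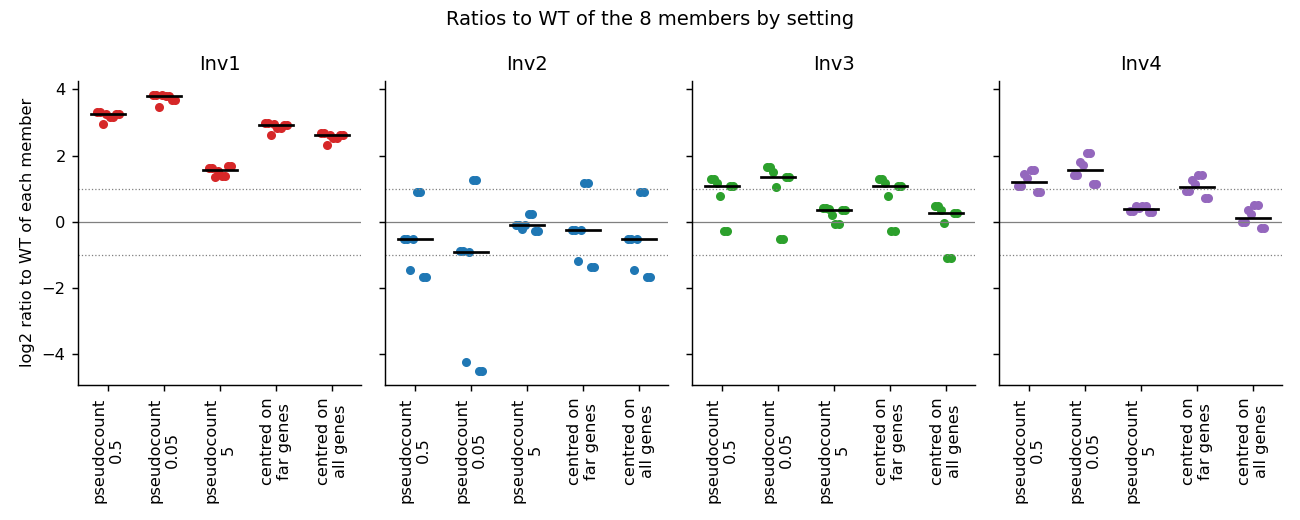
Log2 ratio to WT (y axis) of each of the 8 members (points) and their median (black lines) in Inv1 to Inv4 under 5 settings of pseudocount and centring (x axis). Dotted lines mark 2-fold. In Inv1 the lowest point is 1.37, and in Inv4 the median goes from 1.20 to 0.12 when the ratios are centred on all genes.

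Atg9a and Ankzf1 departed most from the other members. The distance of their log2 profile over the 5 libraries from the median member profile was 2.19, against 0.127 for Cnppd1 and Fam134a, 0.572 for Abcb6, 0.932 for Glb1l and Stk16 and 0.9499 for Zfand2b. They had the highest member value in Inv2 and the lowest in Inv3. The far-gene SD of the difference was 0.406 in Inv2 and 0.608 in Inv3, so the 1.64 and 0.441 of this pair are each a single value in a library with that scatter. The 5 non-member genes nearest to the median member profile, by Euclidean distance over the same libraries, were Tuba4a (0.604), Dnajb2 (1.26), Resp18 (1.997), A630095N17Rik (2.33) and Inha (2.46), the last tied with Obsl1, with which it shares its values. The first 4 lie on the Stk16 side in the same run of genes.

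Those right-hand neighbours met the enhancer region more than the members did in Inv1. Tuba4a, an alpha-tubulin, was at 13.9, A630095N17Rik at 16.02, Dnajb2, a co-chaperone, at 18.1, Ptprn, a secretory granule protein, at 22.99 and Resp18, also of secretory cells, at 21.4. Only Tuba4a of these 5 was below the highest member. Contact was thus higher over the last genes of the run of 13 from Cnppd1 to Resp18 than over the members before them, and the next gene, Dnpep, a peptidase, was at 1.69. In Inv2, Dnajb2 and Ptprn were negative, at -0.093 and -0.326, while A630095N17Rik was at 3.33 and Resp18 at 2.198. Values of either sign among adjacent genes in Inv2 were therefore not limited to the members.

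Other genes were compared by 2 lists. The first, of 6 genes, was drawn up for protein quality control and proteolysis, to which Bcs1l and Stk11ip belong only loosely. Dnajb2 lies inside the run, Dnpep next to it, Usp37, Bcs1l and Rnf25 farther left and Stk11ip farther right. Of these 6, 4 exceeded WT over 2-fold in Inv1, and 2, 4 and 5 did so in Inv2, Inv3 and Inv4. The shares over all genes were 35.9%, 19.4%, 45.6% and 52.4%. In the same order, the numbers over 2-fold under WT were 0, 2, 1 and 0, against 3.88%, 16.5%, 10.7% and 6.8% of all genes. The median log2 ratios were 1.09, 0.39, 1.92 and 2.53, against 0.62, 0.0044, 0.81 and 1.08 for all genes. Bcs1l was at 0 in WT, so its ratio depends on the pseudocount. Stk11ip was the gene under WT in Inv3, at a log2 ratio of -1.13. In this list Dnajb2 alone had contact of the size of the members in Inv1, and the ubiquitin enzymes Usp37 and Rnf25 peaked in Inv4, at 11.9 and 13.6. Of 16 other broadly used genes, 6, 4, 9 and 12 exceeded WT over 2-fold, beside 35.9%, 19.4%, 45.6% and 52.4% of all genes. The first 3 counts are near those shares. As far under WT were 0, 2, 1 and 0, beside 3.88%, 16.5%, 10.7% and 6.8% of all genes. The medians were 0.059, 0.15, 1.08 and 1.91, beside the medians of all genes given above. Zfp142 and Tmbim1 of these genes were at 0 in WT, so their ratios depend on the pseudocount. Of this list Xrcc5, Smarcal1 and Rpl37a, at the far left end, were at 0.431, 0.126 and 0.340 in WT and at 0.269, 0.166 and 0 in Inv1. The lists share no gene with the members, and Nhej1 and Tuba4a are in the second one. In that list Aamp and Pnkd shared every value, as did Rqcd1 with Usp37 and Zfp142 with Bcs1l of the first. The lists are therefore not wholly separate measurements.

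The contact maps place the edges of the inversions on the chromosome. On mm9 the left edge of the rearranged sequence was found at 75.13 Mb in Inv2 and 75.28 Mb in Inv1, each to within about 1 bin of 10 kb, and the right edge at 75.90 Mb in Inv1, Inv2, Inv3 and Inv4. The left edges of Inv3 and Inv4 were at 74.94 and 74.80 Mb. Edges in Inv2, Inv3 and Inv4 were found from the negative values of their maps alone. The 150 kb between the Inv2 and Inv1 edges are called the stretch below, and the falls in gene order place the 13 genes from Cnppd1 to Resp18 on it. This assumes that the falls lie at the edges, since no gene coordinates of that build were used. The stretch lies outside the inverted segment in Inv1 and inside it in Inv2, Inv3 and Inv4. The segment of chromosome from the WT domain border at 75.62 Mb to 75.90 Mb, here called the moved part, belongs to the Epha4 domain in WT. Its centre lies 555 kb from that of the stretch in WT, 210 kb in Inv1 and 550 to 555 kb in Inv2 to Inv4.

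In WT 0.544% of the contacts of the moved part fell on the stretch, from 1521 read pairs (95% counting interval 0.515% to 0.573%). In Inv1 it was 10.3% from 21177 read pairs (10.2% to 10.5%), 18.998 times WT. Relative to mean contact at the same distance in the same map, contact was 0.226 in WT and 1.40 in Inv1. The stretch was thus in contact below the average for its distance in WT and above it in Inv1. Counting intervals cover counting error only.

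In Inv2, Inv3 and Inv4 the shares were 1.26%, 1.29% and 1.40%, or 2.31, 2.36 and 2.58 times WT, and contact relative to distance was 0.484, 0.485 and 0.492. These 3 maps hold negative values, so read pairs were not recovered and no interval is given for them. If a weighted WT map was subtracted from them, their shares and ratios to WT may not mean the same as in Inv1. In Inv2, 29.9% of the share came from the outermost bin beside the breakpoint, which may hold sequence from either side of it. With the stretch shortened by 20 kb at each end the share was 1.68 times WT in Inv2, 2.39 times in Inv3 and 2.52 times in Inv4. The gene table gave another picture for Inv2, with a member median 0.481 times that of WT. The tables do not state the limits of their enhancer region or their scaling, so this difference between table and map was not resolved.

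**Figure D4:**
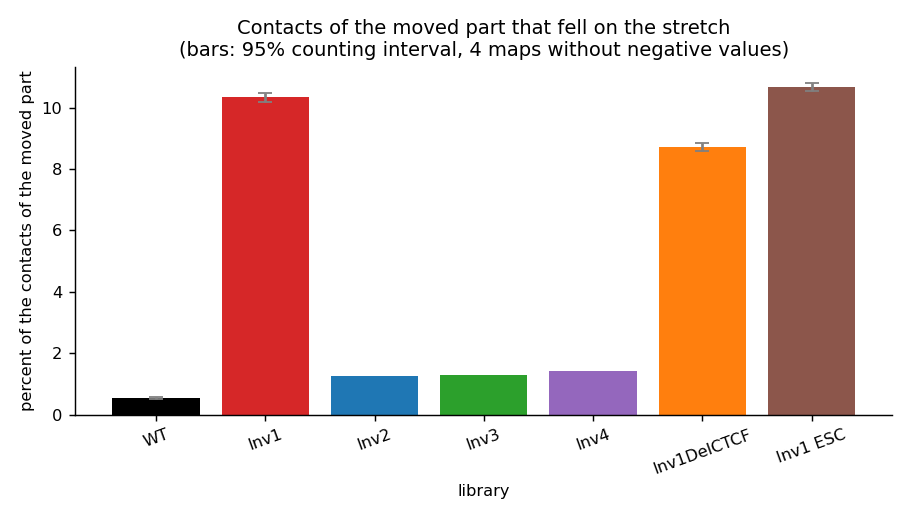
Percent of all contacts of the moved part that fell on the stretch (y axis) in each of the 7 libraries (x axis), with 95% counting intervals for the 4 maps without negative values. The 3 libraries with the Inv1 inversion stand at 8.73% to 10.7% and the other 4 at 0.544% to 1.40%.

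Contact was somewhat lower where the Inv1 inversion was combined with the deletion. In Inv1DelCTCF limb buds the share was 8.73% (8.60% to 8.86%), which is 84.4% of Inv1, a difference of -1.61 percentage points (-1.80 to -1.42). The size of this difference depended on the border end of the moved part. From 4 bins before that end onwards the Inv1DelCTCF map departed from that of Inv1. It may be offset there by under 1 bin, which was not fitted. Without these 40 kb the shares were 9.22% and 9.95%, a difference of -0.729 percentage points (-0.937 to -0.521). In Inv1 ESCs it was 10.7% (10.5% to 10.8%), 0.332 percentage points above Inv1 limb buds (0.141 to 0.524). The 3 shares were 16.04 to 19.6 times that of WT limb buds. The 19.6 is that of Inv1 ESCs. There was no WT ESC library, so inversion and cell type cannot be told apart in that ratio. Differences between these libraries exceeded their counting intervals, but with 1 library each their spread between embryos or cultures is not known.

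Contact along the stretch was graded in the Inv1 libraries. The 50 kb next to the Inv1 breakpoint took 5.06% of the contacts of the moved part, the middle 50 kb 2.86% and the 50 kb next to the Inv2 breakpoint 2.42%. The first was 2.09 times the last in Inv1, 2.43 times in Inv1DelCTCF and 1.75 times in Inv1 ESCs, against 1.14 times in WT. The highest bin was the one at the breakpoint in all 3, with 1.24% to 1.31%. In gene order the members come first on the Inv2 side of the stretch, where map contact in Inv1 was lower. The gene values of the members did not fall steadily towards that side. Cnppd1 and Fam134a, the first in order, were at 12.9 in Inv1. Zfand2b, Abcb6 and Atg9a with Ankzf1, which follow, were at 10.2, 11.7 and 9.78, and Glb1l with Stk16, the last, at 14.6. Left of the stretch in gene order, Slc23a3 was at 9.78 and Nhej1 at 16.8. The lowest Inv1 bin (0.445%) was not the one at the Inv2 breakpoint (0.507%).

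**Figure D5:**
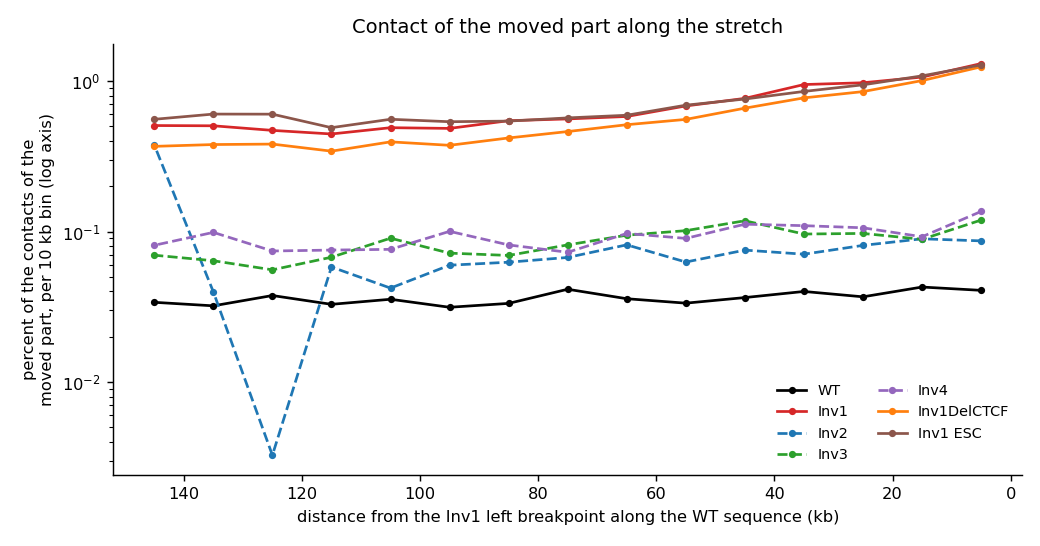
Percent of the contacts of the moved part that fell on each 10 kb bin (y axis, log scale) against distance from the Inv1 left breakpoint along the WT sequence in kb (x axis), for 7 libraries, with dashed lines for the maps with negative values. The Inv1 lines rise to 1.24% to 1.31% at the breakpoint, and WT stays between 0.0314% and 0.0428%.

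The other partners of the stretch differed between libraries too. The 1000 kb on its left took 22.5% of its contacts in WT, against 14.02% for the 340 kb that separate it from the moved part, 1.02% for the moved part and 2.34% for the 1000 kb right of 75.90 Mb, which hold further sequence of the Epha4 side. In Inv1 contact with the moved part was 18.6%, contact with the intervening 340 kb, which lay farther away on that chromosome, 5.73%, and contact with the right side 2.58%. In Inv2, where the inversion placed the stretch beside the right side, that share was 21.5%, 9.20 times WT, and the share with the left side 3.66%, 0.163 times WT. In Inv3 and Inv4 the share with the right side was 7.24% and 4.28%, and with the left side 15.6% and 21.2%, part of which was inverted together with the stretch. Contact of the stretch with itself was 51.1% in WT and 34.4% to 46.8% in the mutants. These are shares for the whole stretch, and were not measured for single genes on it. For Inv2 to Inv4 they come from the maps with negative values, so their ratios to WT may not mean the same as in Inv1.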

How the data were processed

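The authors deposited 1 table per limb bud library for WT and Inv1 to Inv4, with 1 scaled score per gene for contact of its start site with an enhancer region, per the file names; the scaling is not given in the sources used here. For all 7 libraries they deposited contact maps, per the file names HiCUP output at mapping quality 30 balanced by the Knight-Ruiz method, as 1 signal (WT, Inv1, Inv1DelCTCF, Inv1 ESC) or, with negative values, score (Inv2 to Inv4) per pair of 10 kb bins. Build mm9, Bowtie2 2.2.6 and Juicer are named in the submitters' processing notes.

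Groups came from the titles. With 1 library per condition no test was made, and log2 ratios used a pseudocount of 0.5 after negative values were set to 0, which understates changes of low genes. Genes before Tns1 and after Mogat1 (35) served as the far genes. In the maps without negative values, balanced signal was divided into whole read pairs and bin factors: of values worth under 20 read pairs, 100.0% were whole to within 0.1, and 3903613 to 5155259 read pairs were recovered per map. For Inv2 to Inv4 bin factors were taken from the negative bin pairs alone, with the sign reversed. An inversion edge was the first bin whose factor, relative to WT, departed from the median of the 20 bins outside it. The departure had to exceed 4 SD and 0.05, and at least 3 of the 5 bins from it on had to depart as far. The SD was estimated as the scaled median absolute deviation of those 20 bins. The condition on 3 of the 5 bins was added after the data were seen, since without it single poorly recovered bins were taken for edges in sparse simulated maps. It left the edges of Inv1 to Inv4 and Inv1 ESC where they were. No right edge was found in Inv1DelCTCF, and that of Inv1 was used. Their factors correlated at 0.997 up to the departure and, after it, at 0.631 unshifted and 0.570 shifted by 1 bin. Factors in the segments correlated with WT at 0.541 to 0.974 read backwards and -0.165 to -0.0111 forwards (across bins, which are not replicates). Each backward value was the highest over several trial offsets of the axis, with bins at the segment ends left out. The forward values had no such search, so the comparison favours the backward reading. The segment was read in reverse in each mutant map. The backward values of Inv2 to Inv4 (0.974, 0.713 and 0.692) rest on negative bin pairs, and may compare a subtracted WT map with WT itself. In Inv2 to Inv4, 28.8% to 31.3% of listed bin pairs were negative, and 82.1% to 86.6% of those outside the inversion lay within 1% of 1 multiple of WT (0.423, 0.369 and 0.334), as they would if a weighted WT map had been subtracted. The labels do not describe such a step. The WT border was the lowest mean contact in a 200 kb square within the Inv1 segment. Recovery and edges were tested on simulated data, where edges were found exactly except in some of the sparsest maps. The condition on 3 of the 5 bins came from simulated maps, so these are not an independent test of it. The simulated maps held no negative values, so factors from negative bin pairs were not tested.

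All 8 members, the 13 genes between Slc23a3 and Dnpep, 2 genes on either side, the 5 genes nearest to the median member profile and 2 lists were named by rule. Members and lists were chosen with earlier results of these data known. All 103 symbols matched RefSeq (98 current, 5 synonyms). Alternatives were the pseudocount, centring, negative values, shared values and the limits of the stretch. The moved part without the bins where Inv1DelCTCF departed from Inv1 was added after seeing the data. Python 3.11.15, numpy 2.4.6 and pandas 2.3.3 were used.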

Additional observations from a re-analysis of the deposited data

How the results depend on the processing

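With 1 library per condition nothing could be left out, and no test threshold applies. No paired analysis was possible because each condition is 1 library. Counts of members over 2-fold above WT depended on the setting in Inv3 and Inv4, from 5 and 6 to 0 with a pseudocount of 5. They also fell to 0 after centring on all genes, which put 2 members over 2-fold below WT in Inv3. Counts over all 103 genes fell too, from 47 in Inv3 and 54 in Inv4 to 5 and 11 with that pseudocount. After that centring 24 genes were above in each, and 29 were below in Inv3. In Inv2 a pseudocount of 0.05 or centring on the far genes gave 2 above, beside 35 and 28 of all genes. A pseudocount of 5 or leaving out negative values gave 0 below in place of 3, and with that pseudocount 0 of all genes were below. Counting shared values once gave 5 of 5 in Inv1 and 3 of 5 in Inv3. Neither this nor leaving out negative values was applied to the other genes. In Inv1 all 8 stayed above 2-fold under each of the pseudocounts and centrings. Of all genes, 59 were above with a pseudocount of 0.05 and 17 with 5. After centring on all genes 21 were above, and 26 after centring on the far genes. The median log2 ratio of the members was 3.81 with a pseudocount of 0.05, 1.57 with 5 and 2.63 after centring on all genes in Inv1, 0.28 after that centring in Inv3, and 0.37 with a pseudocount of 5 and 0.12 after that centring in Inv4. The cause of these changes was not tested. No single called member ratio changed sign.

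The share of the moved part's contacts on the stretch changes with its length by construction. In the order WT, Inv1, Inv2, Inv3, Inv4, Inv1DelCTCF and Inv1 ESC it was 0.395%, 6.95%, 0.665%, 0.944%, 0.995%, 5.73% and 7.14% when 20 kb shorter at each end, and 0.717%, 11.6%, 4.18%, 1.59%, 1.69%, 9.65% and 12.2% when longer. The Inv2 value then includes sequence beyond the breakpoint, which adjoins the moved part. Computed on observed over expected contact it was 0.267%, 2.55%, 0.770%, 0.683%, 0.787%, 1.86% and 2.38%. Without the 40 kb where Inv1DelCTCF departed from Inv1, an alternative chosen after seeing the data, it was 9.95% in Inv1 and 9.22% in Inv1DelCTCF. The other 5 libraries moved by less than a counting interval, that of Inv1 standing in for the maps with negative values. All 6 mutants stayed above WT under each of these settings, none of which undid a possible subtraction of WT from Inv2 to Inv4. Setting negative bin pairs to 0 gave 1.24%, 1.22% and 1.33% in Inv2 to Inv4. Depth of the maps with negative values was not recovered, so the scatter of single genes in Inv2 to Inv4 limits the ratios of the members there.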
